A study of Homo sapiens with 8 samples.

Results

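Laminins and the proteins that tie them into the basement membrane were followed in the LX-2 line, which was derived from human hepatic stellate cells (HSCs) and serves as a culture model of the activated, myofibroblast-like (MF) state of these cells. The genes form a class named by symbol, and no threshold on a measured value entered the rule. All 10 of them (LAMA2, LAMA4, LAMA5, LAMB1, LAMB2, LAMC1, NID1, NID2, HSPG2 and AGRN) were found among the 16796 genes of the count tables, and all 10 passed the filter of at least 10 counts in total, as did 14895 genes overall. Messenger RNA was read in 8 libraries of a single cell line with no genetic change named in the labels. Control cells (4 libraries) received the vehicle dimethyl sulfoxide (DMSO), and OGTi cells (4 libraries) received OSMI-1, an inhibitor of O-GlcNAc transferase (OGT), at 50 µM. Both groups were kept in medium with 5% fetal bovine serum, and the exposure lasted 24 h. OGT is the enzyme that places the sugar O-GlcNAc on intracellular proteins, and the comparison asked which transcripts shift when the enzyme is blocked. Libraries of the same replicate number were treated as pairs.

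Basement membranes are thin sheets of extracellular matrix that underlie epithelia and endothelia and wrap muscle, fat and Schwann cells. Each laminin is a cross-shaped trimer of an alpha, a beta and a gamma chain. The alpha chain carries the domains that cells grip through integrins and dystroglycan, and the gamma chain encoded by LAMC1 holds the site where nidogens bind. Nidogens (NID1, NID2) and the heparan sulfate proteoglycans perlecan (HSPG2) and agrin (AGRN) then link the laminin sheet to the type IV collagen network and to cell surfaces. In healthy liver the space between hepatocytes and sinusoids holds little organised basement membrane, and HSCs are a known source of laminin and type IV collagen there.

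Promoter sequence was taken from RefSeq (build GRCh38.p14), which gave an entry for 9 of the 10 genes and none for AGRN. For each, the 250 bases before the RefSeq start were searched on both strands for the GC box (GGGCGG), the CCAAT box (CCAAT), the TATA box (TATAAA), the motif of TEAD factors (GGAATG), the AP-1 motif (TGANTCA) and the E-box (CACGTG). The sequences of LAMA2, LAMC1, NID1, NID2 and HSPG2 are shown because they differ in these matches and because their genes moved in different directions under OGTi. Capitals mark the GC box, CCAAT box and TEAD matches on either strand, and each is written 5′ to 3′ on the strand of the gene. They come from chr6:128882888-128883137 (LAMA2, plus strand), chr1:183023170-183023419 (LAMC1, plus strand), chr1:236065091-236065340 (NID1, minus strand), chr14:52069060-52069309 (NID2, minus strand) and chr1:21937311-21937560 (HSPG2, minus strand).
LAMA2: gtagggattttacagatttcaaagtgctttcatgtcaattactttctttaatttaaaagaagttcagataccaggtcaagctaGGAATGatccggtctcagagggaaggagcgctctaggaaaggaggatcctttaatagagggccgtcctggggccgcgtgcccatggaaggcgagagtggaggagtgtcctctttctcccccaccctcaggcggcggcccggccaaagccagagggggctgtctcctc
LAMC1: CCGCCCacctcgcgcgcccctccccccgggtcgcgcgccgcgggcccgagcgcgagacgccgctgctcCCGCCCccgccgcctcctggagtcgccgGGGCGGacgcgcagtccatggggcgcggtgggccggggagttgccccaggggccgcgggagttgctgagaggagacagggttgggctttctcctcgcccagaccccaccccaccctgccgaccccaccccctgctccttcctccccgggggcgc
NID1: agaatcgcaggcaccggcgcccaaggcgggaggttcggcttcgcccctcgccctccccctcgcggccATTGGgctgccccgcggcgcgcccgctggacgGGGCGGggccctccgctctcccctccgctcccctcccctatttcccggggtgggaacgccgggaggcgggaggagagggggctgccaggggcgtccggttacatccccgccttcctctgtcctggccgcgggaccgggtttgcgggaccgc
NID2: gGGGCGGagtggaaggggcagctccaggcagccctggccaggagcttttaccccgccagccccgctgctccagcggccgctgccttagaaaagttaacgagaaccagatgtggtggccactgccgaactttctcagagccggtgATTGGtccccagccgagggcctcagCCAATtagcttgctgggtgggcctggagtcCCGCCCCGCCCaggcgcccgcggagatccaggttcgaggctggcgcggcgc
HSPG2: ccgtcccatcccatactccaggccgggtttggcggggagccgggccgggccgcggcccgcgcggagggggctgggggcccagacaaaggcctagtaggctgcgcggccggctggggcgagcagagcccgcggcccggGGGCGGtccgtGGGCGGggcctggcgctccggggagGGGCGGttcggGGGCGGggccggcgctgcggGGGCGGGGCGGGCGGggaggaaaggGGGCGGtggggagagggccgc
The nidogen promoters each held a CCAAT box, 1 match in NID1 and 2 in NID2, and no other promoter of the 9 had any, against 32.0% of all 35116 promoters in the table. HSPG2 had 8 GC boxes in this window, some of which overlap each other, while LAMC1 had 3, NID2 had 3 and NID1 had 1. Over the 9 promoters 7 held at least 1 GC box, against 42.6% of all promoters. LAMA2 and LAMA4 were the 2 without. The LAMA2 promoter held the single TEAD motif found, a match present in 11.9% of all promoters. No TATA box, AP-1 motif or E-box was matched in the 9 windows, against 10.7%, 6.57% and 6.34% of all promoters. The GC content ran from 48.4% in LAMA4 to 82.8% in LAMA5 and HSPG2, beside a median of 58.0% over all promoters. These matches describe letters only.

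Under OGTi the 10 genes split in their direction. LAMA2, LAMB1, LAMC1, NID1 and AGRN were lower, LAMA5, LAMB2, NID2 and HSPG2 were higher, and LAMA4 did not pass the test (DESeq2 Wald test with the replicate number as a block, Benjamini-Hochberg adjusted p, here q, at or below 0.05 over all genes). Thus 5 of 10 were called lower, where 24.0% of the 14028 genes with a q were called lower, and 4 of 10 were called higher, where 22.7% of all genes were. Normalized counts (counts divided by the library's size factor) of the 2 groups did not overlap for the same 5 lower genes, against 20.2% of all genes. Among the higher genes they did not overlap for 2, NID2 and HSPG2, against 19.8% of all genes. The median log2 fold change over the 10 was -0.09, beside 0.005 over all genes, and 9 of the 10 moved the same way in all 4 pairs. Libraries held between 24166756 and 28201215 counts in the control group and between 25027759 and 27638478 in the OGTi group. As these are bulk samples, a lower share of cells expressing a gene and less RNA of it per cell cannot be told apart.

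**Figure D1:**
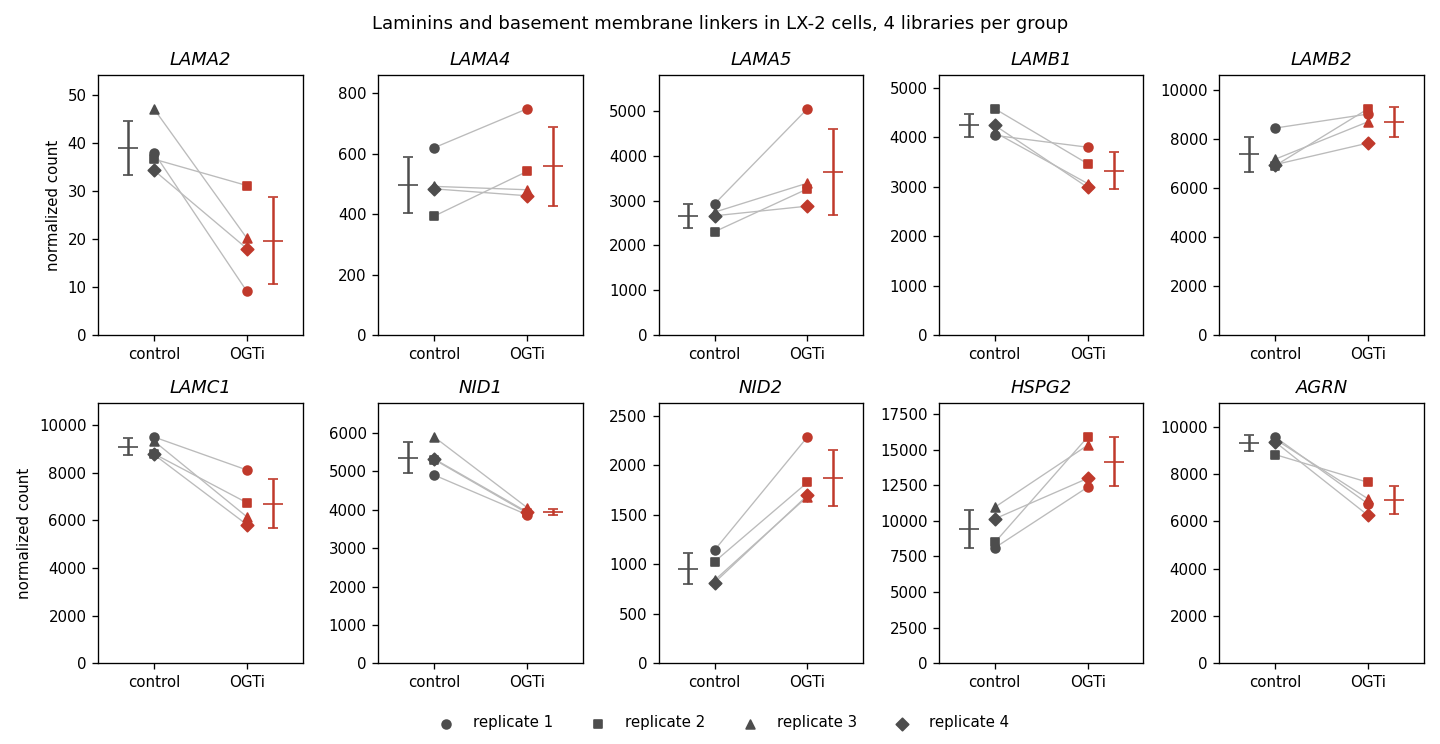
Normalized counts (vertical axes, from 0) of the 10 genes in the 4 control and 4 OGTi libraries, with grey lines joining libraries of the same replicate number and bars giving the mean ± SD of each group. NID2 and HSPG2 lie higher and LAMA2, LAMB1, LAMC1, NID1 and AGRN lower in every OGTi library than in any control library, and the groups overlap for LAMA4, LAMA5 and LAMB2.

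The alpha chains decide which receptors a laminin can engage. LAMA5 (chromosome 20, 62307955 to 62367312 on GRCh38, minus strand, 80 exons in the canonical transcript) encodes the alpha chain of most mature epithelial and vascular basement membranes. Its normalized counts were 2925, 2305, 2742 and 2662 in control replicates 1 to 4, and 5049, 3262, 3391 and 2877 in OGTi replicates 1 to 4. Each OGTi library exceeded its paired control, but the lowest OGTi value fell below the highest control value, and OGTi replicate 1 was far above the rest of its group. The mean went from 2658 ± 259.8 to 3645 ± 961 (SD, n = 4), a log2 fold change of 0.43 ± 0.10 (SE) with q = 7.61e-05 in DESeq2. The rise within pairs ran from 0.11 in pair 4 to 0.79 in pair 1 on the log2 scale.

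LAMA4 (chromosome 6, 112107931 to 112254939, minus strand, 39 exons) is the alpha chain of endothelial and other mesenchymal basement membranes. It gave 619.6, 394, 492 and 484 normalized counts in control libraries and 748, 541, 481 and 461 in OGTi libraries. The groups overlapped, with OGTi above control in pairs 1 and 2 and below it in pairs 3 and 4. Its log2 fold change was 0.16 ± 0.13, with a 95% interval of -0.09 to 0.41 and q = 0.322 in DESeq2, so that a rise or a small fall both lie within the error. LAMA2 (chromosome 6, 128883138 to 129516566, plus strand, 65 exons), the alpha chain of muscle and peripheral nerve laminin, was near the bottom of the expressed range. The normalized counts of LAMA2 were 38.0, 36.6, 47.1 and 34.3 in control and 9.14, 31.1, 20.2 and 18.0 in OGTi libraries. All OGTi values were below all control values, though by a narrow margin in pair 2. Its mean went from 39.0 ± 5.61 to 19.6 ± 9.04 at a log2 fold change of -1.08 ± 0.45 with q = 0.0376 in DESeq2, and it was the single gene of the 10 called with a change of at least 2-fold. This call held without replicate pair 2 (log2 fold change -1.38, q = 0.0402 in DESeq2) but was lost when any other pair was left out. Without replicate pair 1, 3 or 4 the q of LAMA2 became 0.236, 0.144 or 0.108, at log2 fold changes of -0.79, -1.04 and -1.14.

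The beta chains parted. LAMB1 (chromosome 7, 107923799 to 108003213, minus strand, 34 exons), the broadly expressed beta chain also found in embryonic basement membranes, fell under OGTi. It gave 4038, 4577, 4100.3 and 4240.4 normalized counts in control and 3799, 3464, 3064 and 2986 in OGTi libraries. The highest OGTi library, replicate 1, stood just under the lowest control library, which was its own pair. From 4239 ± 241 the mean went to 3328 ± 377, a log2 fold change of -0.35 ± 0.08 with q = 9.1e-05 in DESeq2. LAMB2 (chromosome 3, 49121114 to 49133118, minus strand, 32 exons), the beta chain of the neuromuscular synapse and the kidney filter, rose. Its values were 8440, 6906, 7169.7 and 6949.8 in control and 9012, 9227, 8698 and 7828 in OGTi libraries. Each OGTi library was above its pair, while OGTi replicate 4 lay below control replicate 1, so the groups overlapped. The log2 fold change of LAMB2 was 0.24 ± 0.07 (mean 7366 ± 725 to 8691 ± 615, q = 0.00325 in DESeq2), and without replicate pair 2 it was 0.18 with q = 0.0904.

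LAMC1 (chromosome 1, 183023420 to 183145592, plus strand, 28 exons) encodes the gamma chain shared by most laminin trimers. Its normalized counts were 9491, 8788, 9321 and 8756 in control and 8108, 6734, 6144 and 5817 in OGTi libraries. Every OGTi library was below every control library, and OGTi replicate 1 was again the closest to the controls. The mean dropped from 9089 ± 373 to 6701 ± 1012, with a log2 fold change of -0.45 ± 0.08 with q = 7.75e-08 in DESeq2.

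The nidogens, a pair of related linkers that bind the laminin gamma chain and type IV collagen, went in opposite directions. NID1 (chromosome 1, 235975830 to 236065109, minus strand, 20 exons) gave 4904, 5307, 5896 and 5324 normalized counts in control and 3869, 3914, 4056 and 3942 in OGTi libraries. The OGTi values were close together and all below the controls. The NID1 mean fell from 5358 ± 408 to 3945 ± 79.6, with a log2 fold change of -0.44 ± 0.07 with q = 2.94e-09 in DESeq2. NID2 (chromosome 14, 52004809 to 52069059, minus strand, 22 exons) gave 1142, 1025, 838 and 814 in control and 2285, 1826, 1683 and 1695 in OGTi libraries. No OGTi library came near the control range. NID2 rose from 955 ± 156 to 1872 ± 282, a log2 fold change of 0.97 ± 0.09 with q = 1.54e-27 in DESeq2, and the rise within pairs was even, from 0.83 to 1.06 on the log2 scale. This was the smallest q of the 10 genes. Both nidogen promoters printed above held CCAAT boxes, as did 32.0% of all promoters, and a link to these opposite changes was not tested.

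The large heparan sulfate proteoglycans also diverged. HSPG2 (chromosome 1, 21822244 to 21937310, minus strand, 97 exons) encodes perlecan, which stores growth factors on its sugar chains. It gave 8108, 8486, 10956 and 10141 normalized counts in control and 12369, 15888.5, 15312 and 12985 in OGTi libraries. All OGTi values were higher than all control values, and control replicates 3 and 4 were the nearest to them. Its mean moved from 9423 ± 1351 to 14139 ± 1722, a log2 fold change of 0.59 ± 0.09 with q = 6.63e-11 in DESeq2. AGRN (chromosome 1, 1020120 to 1056118, plus strand, 36 exons) encodes agrin, which binds dystroglycan and laminin and organises the neuromuscular synapse. AGRN gave 9561, 8817, 9466 and 9349 in control and 6735, 7644, 6947 and 6248 in OGTi libraries. The groups were well apart, and the control libraries were tight. The fall from 9298 ± 332 to 6893 ± 579.7 was a log2 fold change of -0.43 ± 0.08 with q = 8.64e-08 in DESeq2. Exons of LAMA5, LAMB1, NID2 and HSPG2 overlap those of a counted gene on the opposite strand (ADRM1, DLD, RTRAF and LDLRAD2, in that order), and reads were counted by strand.

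**Figure D2:**
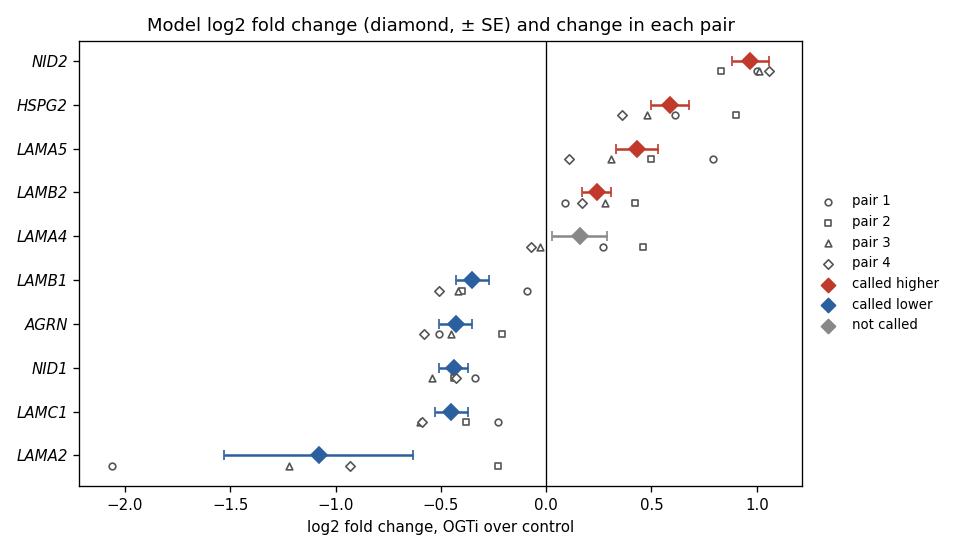
Log2 fold change of OGTi over control (horizontal axis) for the 10 genes: filled diamonds are the DESeq2 estimate ± SE, and open symbols below each diamond are the 4 pairs. NID2 is at 0.97 and LAMA2 at -1.08, LAMA2 has the widest error (0.45), and LAMA4 is the gene whose pairs fall on both sides of 0.

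Whether genes of a class moved apart was tested from ratios within each library, which do not depend on how libraries are scaled. The log2 ratio of NID2 over NID1 was -2.10, -2.37, -2.82 and -2.71 in control and -0.76, -1.10, -1.27 and -1.22 in OGTi libraries. NID2 thus remained the less abundant of the nidogens by count in every library, but the gap narrowed by 1.41 on the log2 scale. The log2 ratio of AGRN over HSPG2 was 0.24, 0.06, -0.21 and -0.12 in control and -0.88, -1.06, -1.14 and -1.06 in OGTi libraries. Counts of the proteoglycans were about equal in control cells, with a mean log2 ratio of -0.01 ± 0.20, and HSPG2 led by count in every OGTi library at -1.03 ± 0.11. These counts are not divided by length, and the HSPG2 transcript is longer (14.341 kb against 7.326 kb for AGRN). Per kb, AGRN was above HSPG2 in control cells (1269 against 657), and they overlapped in OGTi cells (941 and 986). The log2 ratio of LAMB2 over LAMB1 was 1.06, 0.59, 0.81 and 0.71 in control and 1.25, 1.41, 1.51 and 1.39 in OGTi libraries. That of LAMA5 over LAMA4 was 2.24, 2.55, 2.48 and 2.46 in control and 2.75, 2.59, 2.82 and 2.64 in OGTi libraries. The shift was 0.59 for the beta chains and 0.27 for the alpha chains, where the nearest control and OGTi values were 2.55 and 2.59. In none of the 4 ratios did the groups overlap, and each moved in the same direction in 4 of 4 pairs. For the nidogens, the proteoglycans and the beta chains, the 2 genes had already been called in opposite directions. Their ratios therefore restate those calls and add no separate evidence. How often the ratio of other gene pairs would separate in this way was not measured. Each gave p = 0.0286 in a two-sided exact permutation test, the smallest that 4 against 4 libraries allow, and an adjusted p of 0.0286 over the 4 ratios. Taken as pairs, the exact sign-flip test cannot go below 0.125 with 4 pairs, and each ratio gave 0.125.

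**Figure D3:**
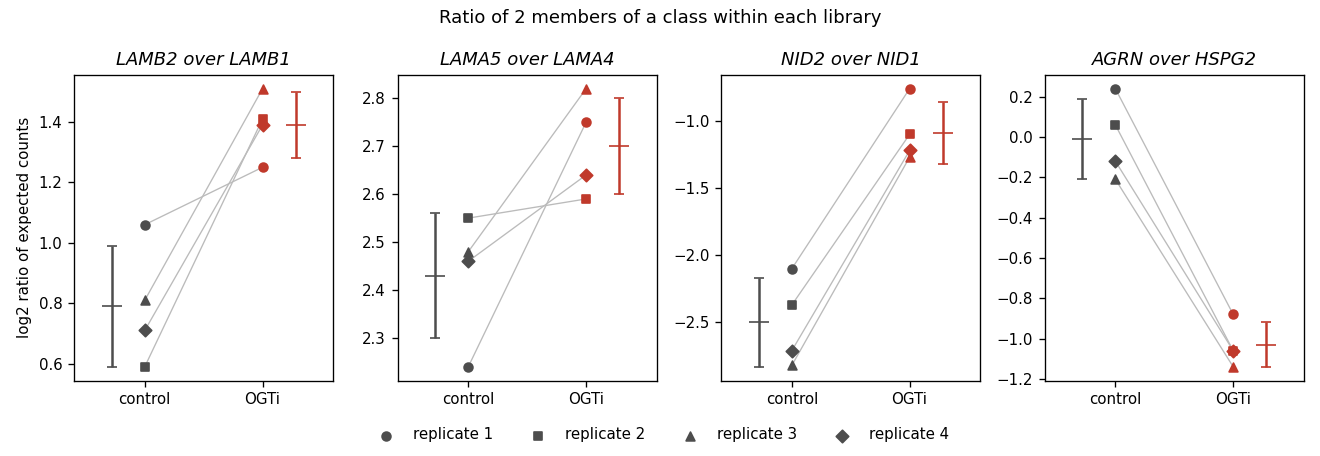
Log2 ratio of expected counts (vertical axes, each with its own range) for LAMB2 over LAMB1, LAMA5 over LAMA4, NID2 over NID1 and AGRN over HSPG2 in each library, with lines joining pairs and bars giving mean ± SD over 4 libraries. The control and OGTi points do not overlap in any panel, and the widest shift is that of NID2 over NID1, from -2.50 to -1.09.

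Levels of different genes were compared per length, as normalized count per kb of the canonical transcript. In control cells LAMB2 (1294 ± 127 per kb) and AGRN (1269 ± 45.3) were the highest and overlapped each other, followed by LAMC1 (1146 ± 47.0), NID1 (925 ± 70.5) and LAMB1 (750.2 ± 42.6). HSPG2 (657 ± 94.2) overlapped LAMB1 across libraries. LAMA5 (233 ± 22.7) and NID2 (196 ± 32.1) overlapped and stood well below, LAMA4 (68.8 ± 12.9) was lower again, and LAMA2 (4.02 ± 0.578) was last. Against 14511 genes with a length, the level of LAMB2 in control cells was at percentile 89.3 and that of LAMA2 at percentile 12.3. In OGTi cells LAMB2 stayed on top at 1527 ± 108 per kb, clear of the rest. HSPG2 moved up to 986 ± 120.1 and overlapped AGRN (941 ± 79.1), which in turn overlapped LAMC1 (845 ± 128). NID1 (681 ± 13.7) and LAMB1 (589 ± 66.8) overlapped. NID2 (384 ± 58.0) then passed LAMA5 (319 ± 84.1) in mean level, although their libraries overlapped, and its percentile went from 52.6 to 68.1. LAMA4 (77.2 ± 18.2) and LAMA2 (2.02 ± 0.933) kept the last places.

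Summed over all chains of a class, the laminin transcripts changed in balance. These sums take in the chains outside the 10 genes and are given as a description with no test. The alpha chain level ran from 352 to 419 per kb in control and from 434 to 698 in OGTi libraries, without overlap, the top value being OGTi replicate 1. Beta chain levels overlapped (2122 to 2285 against 2118 to 2506). The gamma chain level was lower in each OGTi library (771 to 1050.1) than in any control library (1131 to 1225). The ratio of alpha to gamma level was 0.342, 0.311, 0.343 and 0.348 in control and 0.664, 0.569, 0.595 and 0.563 in OGTi libraries. The ratio of beta to gamma level was 1.87, 1.88, 1.75 and 1.86 in control and 2.39, 2.72, 2.77 and 2.75 in OGTi libraries. Both ratios were higher in every OGTi library, so that per gamma chain transcript there were more alpha and beta chain transcripts than in control cells.

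Within the beta class LAMB1 made up 31.3%, 38.0%, 34.2% and 35.3% of the level in control and 26.8%, 25.8%, 24.2% and 25.0% in OGTi libraries, which did not overlap. LAMB2 made up 59.6% ± 3.67 in control and 66.2% ± 2.53 in OGTi libraries, with overlap. Within the alpha class LAMA5 held the main place in both groups, at 58.7% ± 1.70 and 60.1% ± 2.89, and the groups overlapped. The share of LAMA4 was 20.5%, 15.5%, 16.4% and 16.8% in control and 14.8%, 15.0%, 13.8% and 14.7% in OGTi libraries. This share was lower without overlap although the count of LAMA4 itself did not pass the test, since the sum of the alpha chains was higher. LAMA2 gave 1.02% ± 0.13 and 0.41% ± 0.21 of the alpha level. LAMC1 supplied 97.3% ± 0.68 of the gamma level in control and 96.4% ± 1.06 in OGTi cells, so the gamma sum followed LAMC1.

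**Figure D4:**
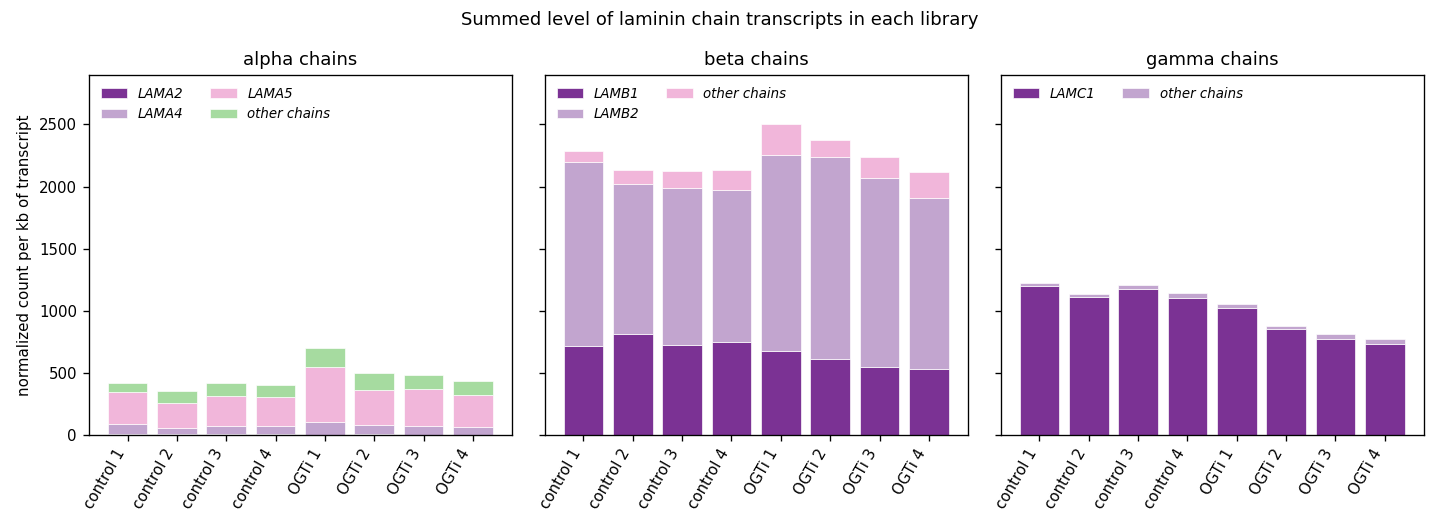
Summed level of laminin alpha, beta and gamma chain transcripts (normalized count per kb of transcript, vertical axis from 0) in each library, with the genes of the 10 stacked singly and the other chains of a class summed. The gamma column is shorter in all 4 OGTi libraries (771 to 1050.1) than in the controls (1131 to 1225), the alpha column is taller (434 to 698 against 352 to 419), and the LAMB1 part of the beta column shrinks to 25.5% from 34.7% on average.

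The remaining laminin chain genes, 6 in number, had 5 with a q, of which 2 were called higher and 0 lower (median log2 fold change 0.26 over the 5). Among all genes 22.7% were called higher and 24.0% lower. LAMA1, an alpha chain typical of embryonic basement membranes, rose from 555 ± 40.3 to 873 ± 206 normalized counts without overlap (log2 fold change 0.63 ± 0.14, q = 4.56e-05 in DESeq2). LAMB3, the beta chain of the skin laminin that anchors hemidesmosomes, rose from 488 ± 123 to 771 ± 195 with overlap (0.66 ± 0.29, q = 0.0471 in DESeq2). The LAMB3 call was lost without replicate pair 2 (q = 0.123) and without pair 3 (q = 0.0763), which left 1 called gene. LAMA3 and LAMB4 were not called, at log2 fold changes of 0.26 and -0.44. LAMC3 had 0 to 3 counts per library and was not tested.

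Receptors for laminin and agrin held calls in both directions, as did their ligands. Of 11 listed genes 10 had a q, 5 were called lower and 5 higher, with a median log2 fold change of -0.03. Beside them, 24.0% of all genes were called lower and 22.7% higher. BCAM, the Lutheran glycoprotein that binds the LAMA5 chain, fell from 3932 ± 206 to 1378 ± 331 normalized counts (log2 fold change -1.54 ± 0.11, q = 2.77e-42 in DESeq2). ITGA3, the alpha subunit of the integrin that binds laminins with LAMA3 or LAMA5, rose from 16174 ± 609 to 25630.4 ± 2779 (0.66 ± 0.07, q = 8.53e-19 in DESeq2). SDC1, a cell surface heparan sulfate proteoglycan, rose from 4123 ± 127 to 5883 ± 853 (0.50 ± 0.09, q = 9.13e-08 in DESeq2). The other genes called lower were ITGB1, ITGB4, ITGA7 and SDC4, and the other genes called higher were ITGA6, LRP4 and DAG1, the last of which encodes dystroglycan. BCAM thus fell in the same libraries in which its ligand LAMA5 rose.

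Dystroglycan binds laminin and agrin through a sugar chain built by a set of dedicated enzymes. Of these 13 genes, all with a q, 3 were called lower and 5 higher, with a median log2 fold change of -0.17. Among all genes 24.0% were called lower, near the share in this list, and 22.7% were called higher. B4GAT1, which primes the chain for its extension, fell from 1374 ± 115 to 731 ± 39.6 normalized counts (log2 fold change -0.91 ± 0.09, q = 3.07e-21 in DESeq2). RXYLT1, which adds a xylose to this chain, rose from 469 ± 38.2 to 723 ± 57.1 (0.63 ± 0.12, q = 1.58e-06 in DESeq2). POMT1, which adds the mannose that starts the chain, and B3GALNT2, which adds a further sugar near its base, were also called higher (0.30 and 0.46). POMGNT1, another enzyme of this list, was called lower (-0.37).

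The dystrophin and utrophin complex joins dystroglycan to the cytoskeleton. Of 12 listed genes 10 had a q, 5 were called lower and 0 higher, with a median log2 fold change of -0.16. Calls over all genes stood at 24.0% lower and 22.7% higher. SGCB, a sarcoglycan, fell from 2609 ± 158 to 1871 ± 109 normalized counts (log2 fold change -0.48 ± 0.08, q = 4.37e-08 in DESeq2). UTRN, the dystrophin relative of non-muscle cells, went from 5183 ± 1006 to 4326 ± 203 with overlap (-0.24 ± 0.09, q = 0.018 in DESeq2). The UTRN call rests on the replicate block: DESeq2 with no block gave -0.26 with q = 0.0757. It was also lost without replicate pair 2, 3 or 4, at q = 0.119, 0.189 and 0.108. For the whole list 3, 2 and 2 genes were called lower without replicate pair 1, 2 and 4.

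Partners of laminin in the basement membrane were more often called lower than higher, where 24.0% of all genes were called lower and 22.7% higher. Lists of 8 or 10 genes are short for judging a count of 0 against such a share. Of 9 collagen genes 8 had a q, 6 were called lower and 0 higher, with a median log2 fold change of -0.48. COL4A1 and COL4A2, which are neighbours on the genome and encode the common type IV collagen chains, fell from 5254 ± 567 to 3359 ± 599 and from 22315 ± 1676 to 16176 ± 2888 normalized counts. Their log2 fold changes were -0.66 ± 0.08 (q = 4.1e-14 in DESeq2) and -0.48 ± 0.07 (q = 4.43e-10 in DESeq2). COL15A1, a collagen that bridges the basement membrane and the fibrils beneath it, went from 44.6 ± 15.6 to 2.39 ± 2.99 (-4.43 ± 0.70, q = 2.44e-09 in DESeq2), at low counts. Of 15 other basement membrane glycoproteins 10 had a q, 6 were called lower and 0 higher, with a median of -0.50. TINAGL1, a laminin-binding glycoprotein, fell from 696 ± 109 to 279 ± 76.7 (-1.34 ± 0.13, q = 2.05e-23 in DESeq2). NTN4, a netrin that binds laminin gamma chains and interrupts their network, fell from 2774 ± 503 to 1569 ± 347 (-0.83 ± 0.08, q = 5e-22 in DESeq2). SPARC, a collagen-binding matrix protein, fell from 22910.3 ± 967 to 15840.0 ± 1415 (-0.54 ± 0.07, q = 3.86e-15 in DESeq2).

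Perlecan and agrin carry heparan sulfate, and the genes that make and edit this sugar held calls in both directions. Of 20 listed genes 16 had a q, 5 were called lower and 7 higher, with a median log2 fold change of 0.11. The shares over all genes were 24.0% lower and 22.7% higher, so calls in both directions are common in these data. NDST1, which starts the sulfation of the chain, fell from 6223 ± 577 to 2354 ± 217 normalized counts (log2 fold change -1.40 ± 0.07, q = 8.95e-86 in DESeq2). EXT1, a subunit of the polymerase, fell from 5077 ± 349 to 2979 ± 195 (-0.77 ± 0.07, q = 1.06e-27 in DESeq2), whereas its partner EXT2 was not called (0.10, q = 0.332 in DESeq2). B3GAT3, which completes the linker to the core protein, rose from 1139 ± 200.2 to 2195 ± 84.3 (0.96 ± 0.11, q = 8.92e-17 in DESeq2). SULF1 and SULF2, which remove sulfate groups outside the cell, were both called lower (-1.61 and -0.67). XYLT2 was also called lower (-0.55). The other genes called higher were B4GALT7, B3GALT6, EXTL2, NDST2, GLCE and HS2ST1, at log2 fold changes of 0.29 to 0.96. HSPG2 thus rose in the same libraries in which NDST1 and EXT1 fell and B3GAT3, NDST2 and HS2ST1 rose.

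Of 7 proteases that cut basement membrane proteins, all with a q, 4 were called lower and 0 higher, with a median log2 fold change of -0.29. Here too the shares over all genes were 24.0% lower and 22.7% higher, and the list is short. ADAMTS1, a secreted metalloprotease, fell from 4837 ± 495 to 891 ± 127 normalized counts (log2 fold change -2.44 ± 0.10, q = 9.33e-120 in DESeq2). TLL1 and BMP1, related enzymes that cut perlecan and laminin chains among other matrix proteins, fell from 2178 ± 401 to 589 ± 159 (-1.91 ± 0.10, q = 4.8e-74 in DESeq2) and from 2476 ± 213 to 1909 ± 199.5 (-0.38 ± 0.08, q = 1.6e-05 in DESeq2). For the 5 lists with 0 genes called in a direction (other laminin chains lower, and the dystrophin complex, collagens, glycoproteins and proteases higher), the count in that direction was also 0 at an unadjusted DESeq2 p under 0.05 and 0 with edgeR.

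**Figure D5:**
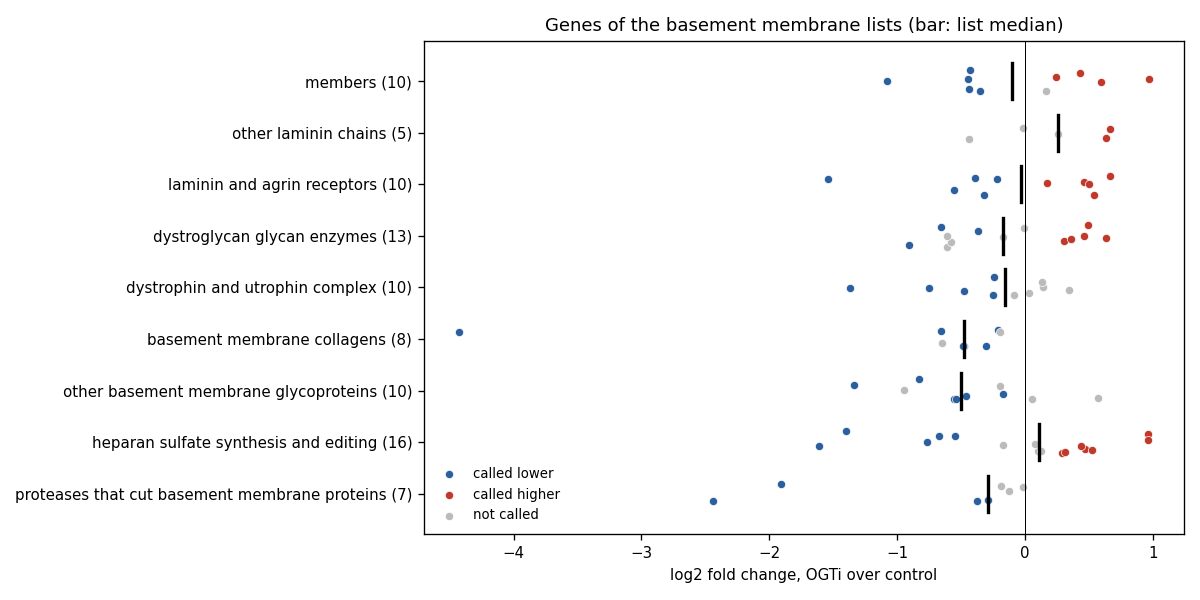
Log2 fold change of OGTi over control (horizontal axis) for each gene with a q in the 9 lists, with the number of such genes in brackets and a black bar at the median of the list. The dystrophin and utrophin complex, collagens, other glycoproteins and proteases hold genes called lower and none called higher. The other laminin chains hold genes called higher and none called lower. The 10 laminin and linker genes, the receptors, the dystroglycan enzymes and the heparan sulfate genes hold both. Over all genes 24.0% were called lower and 22.7% higher.

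The labelled cell type was checked against marker genes. VIM and COL1A1 were abundant (95086 and 84778 normalized counts on average in control cells), as were TAGLN and THY1, while the stellate cell or fibroblast markers DES, DCN and LUM stood at 0 to 6.01. Of 12 such markers 9 had a q, 7 were called lower under OGTi and 0 higher, against 24.0% and 22.7% of all genes. The count called higher was also 0 at an unadjusted DESeq2 p under 0.05 and 0 with edgeR. The summed normalized count of these markers was 205227 to 243631 in control and 148217 to 173503 in OGTi libraries. Their part in the changes of the laminin and linker genes was not tested. Markers of other liver cells had values for 3 of 7 hepatocyte, 4 of 6 endothelial, 3 of 5 cholangiocyte and 4 of 6 macrophage genes. Hepatocyte markers summed to at most 76.8 normalized counts in a library, with APOA1 at 0 to 1 count. The endothelial sum moved with treatment at a low level (47.7 to 91.1 in control, 17.0 to 33.8 in OGTi), with KDR at 0 to 5 counts. CDH5, an endothelial cadherin, fell from a mean of 37.3 to 3.86 (log2 fold change -3.31, q = 5.83e-07 in DESeq2). The cholangiocyte sum (681 to 1151 in control, 954 to 1273 in OGTi) came mainly from SOX9, which was called higher (log2 fold change 0.35, q = 0.00715 in DESeq2), while KRT7 was called lower (-1.05, q = 0.000229 in DESeq2) and KRT19 was at 0 to 3 counts. The macrophage sum moved with treatment (2482 to 4089 in control, 5610 to 9391 in OGTi) and came almost wholly from CD68, while PTPRC and CSF1R were at 0 to 11.5 and CD14 at 41.1 to 92.4. The part of these markers in the results was not tested.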

How the data were processed

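Polyadenylated RNA of LX-2 cells was sequenced from strand-specific libraries. According to the study's methods and the submitters' processing notes, the authors aligned reads with Bowtie2 2.3.5.1 to hg38 and counted them with RSEM 1.3.1. The deposited values used here are expected counts per gene and library (estimated counts, not scaled for depth), and the authors' own comparison table was not used. Expected counts were rounded, genes with a total under 10 counts were left out, and the rest were compared with the DESeq2 1.42.0 Wald test in R 4.3.3, with replicate number as a block, as in the study's methods, medians of ratios as size factors, independent filtering on and no shrinkage. A q at or below 0.05 was a call. Deviations from the group mean correlated between libraries of the same number at 0.372, 0.391, 0.165 and 0.327 over 10994 genes. The fit was also run on simulated counts with known fold changes. These were drawn at a single dispersion and without a replicate effect, so the run does not test the replicate block. Genes were matched by symbol to GENCODE release 44 (16264 of 16796), and lengths are those of the canonical transcript. Ratios were tested with the exact permutation test of scipy 1.17.1. Alternatives were edgeR 4.0.16, no replicate block, TMM factors, other filters, other transcript lengths and leaving out each pair. The genes and gene lists were chosen with earlier results of these data known, so none is independent support. All 10 members, the other laminin chains and, of each other list, the 3 called genes with the largest absolute Wald statistic were named, apart from a few genes that are not reported here; EXT2, SULF1, SULF2, marker genes and genes named without full statistics were chosen after their values were seen. Counts of 24166756 to 28201215 per library leave little counting error on the abundant genes and more on LAMA2.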

Additional observations from a re-analysis of the deposited data

Results flagged for a closer look

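Of 36 groups of 4 libraries examined for a library far from the others (normalized counts of the 10 genes, the 4 log2 ratios and 4 chain measures, by group), 1 stood out, where chance gives about 1.8. The ratio of beta to gamma laminin chain level was 2.39 in OGTi replicate 1 and 2.72 to 2.77 in the other OGTi libraries. The gap was 0.869 of the range of the group, above Dixon's 95% critical value for 4 libraries. The same library had the highest LAMC1 count of its group (8108) and the highest LAMB3 count (1002). All 4 OGTi values remained above the control range of 1.75 to 1.88.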

How the results depend on the processing

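The counts of called genes among the 10 stayed at 5 lower and 4 higher under edgeR with the replicate block, and under DESeq2 and edgeR with no replicate block. Over all alternatives the log2 fold changes of the 10 genes kept their direction in 110 of 110 cases and their side of the threshold in 106, the exceptions being LAMA2 without pair 1, 3 or 4 and LAMB2 without pair 2. No ratio between members changed direction in 20 cases. Leaving out a replicate pair gave 1 to 2 other laminin chains called higher and 2 to 4 dystrophin complex genes called lower. Among other named genes 245 of 252 values kept their direction and call and LAMB3 and UTRN lost theirs as given above. Another length was the union of all exons of a gene's protein-coding transcripts. With it LAMB1 gave 31.1% of the beta level in control and 22.6% in OGTi cells. LAMA4 then gave 12.9% of the alpha level in OGTi cells, and the beta to gamma ratio was 1.73 in control cells. These follow from the longer length assigned to LAMB1 and LAMA4. With 4 pairs the sign-flip test of a ratio cannot pass 0.05, and LAMA2, at 10 to 41 expected counts per library, is the gene that depth limits most. The alternative settings for named genes other than the 10 were added after seeing the data.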
